A study of Mus musculus with 4 samples.

Results

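The genes described here are the 4 ErbB receptors Egfr, Erbb2, Erbb3 and Erbb4, the neuregulins Nrg1, Nrg2 and Nrg3, and the EGF-type ligands Egf, Hbegf and Tgfa. They were taken by name, as members of a ligand and receptor family, and are 10 of the 45706 genes of the count table. All 10 had reads in each of the 4 libraries and passed the minimum of 10 counts in total. The RNA came from cells labelled as medial basal radial glia of the mouse neocortex at E18.5. The embryos were of the strain C57BL/6JOlaHsd and heterozygous for a GFP reporter (Tubb-GFP/+), and the titles name the dye DiI. The role of reporter and dye in isolating the cells was not stated in the labels. The 4 libraries form a single group with no control, and nothing in the labels says that they came from separate animals. Every p-value below is therefore about the spread among these libraries, and that spread may be technical.

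ErbB proteins are receptor tyrosine kinases of the cell surface that pair with each other when a ligand binds. Egfr binds EGF, TGF-alpha and HB-EGF. Erbb3 and Erbb4 bind neuregulins, Erbb4 also binds HB-EGF, and Erbb2 has no known ligand of its own and serves as a partner for the others. The ligands are mostly made as membrane proteins and cut loose by proteases of the ADAM family. In the embryonic cortex, neuregulin signalling is known to help maintain radial glia, and Egfr is known to appear in late embryonic progenitors, around the time when glia begin to form.

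Among the receptors, Egfr had the most RNA, at 11.0 ± 1.17 TPM (SD, n = 4), and Erbb2, Erbb3 and Erbb4 had between 1.07 and 1.89 TPM. Among the ligands, Hbegf (21.4 ± 3.71 TPM), Nrg1 (12.6 ± 1.15 TPM) and Tgfa (7.75 ± 0.505 TPM) had the most RNA. Egf, Nrg2 and Nrg3 lay between 1.01 and 1.47 TPM. TPM is the share of a library's reads that a gene takes per length, scaled to the same total in every library. It was computed from the deposited read counts and the merged exon length of each gene, since the TPM that the authors deposited rests on another length, described further on. By edgeR's quasi-likelihood test with Benjamini-Hochberg adjustment over 20991 genes, 6 of the 10 genes lay above 1 TPM, none lay below it and 4 were not called. Of all genes tested, 65.9% lay above 1 TPM and 12.1% below it, so the count of 6 is close to the share over all genes. The median of the 10 mean levels was 1.68 TPM, against 4.79 TPM over all genes tested and 9.0 TPM over the protein-coding genes tested. The share above 1 TPM among protein-coding genes alone was not computed.

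**Figure D1:**
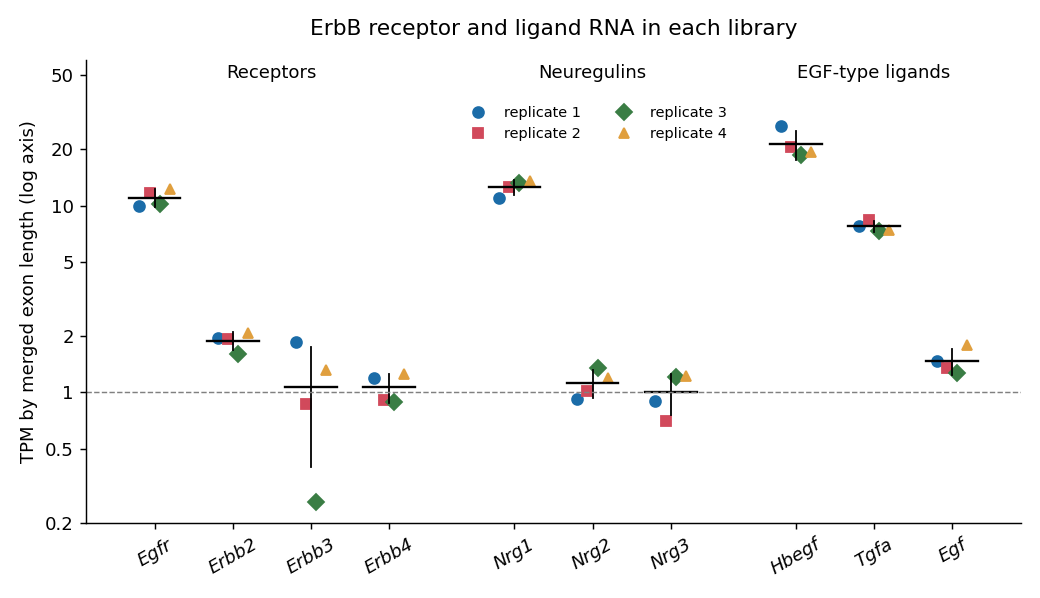
TPM by merged exon length (log axis) of the 10 genes in each of the 4 libraries, grouped into receptors, neuregulins and EGF-type ligands; horizontal bars are means, vertical lines are 1 SD to either side, and the dashed line marks 1 TPM. Egfr, Nrg1, Hbegf and Tgfa stand at 7.35 TPM or higher in all 4 libraries, and Erbb3 spreads from 0.26 to 1.86 TPM.

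Library totals lay between 26540656 and 34837657 counts, and between 23128 and 23900 genes had a count. All 7 radial glial markers of a list lay above 1 TPM, with a summed level of 4727 to 5712 TPM, led by Fabp7 at 4631 ± 382 TPM and Slc1a3 at 267 ± 20.5 TPM. Hopx, which the study's title ties to these cells, averaged 3.03 ± 0.414 TPM, with 27.2% of its exonic bases shared with a gene on the other strand. Genes listed as markers of other cells were present too, though such genes need not be particular to those cells. All 7 markers of cortical neurons lay above 1 TPM and summed to 9447 to 10559 TPM, all 6 of intermediate progenitors summed to 1246 to 1418 TPM and all 8 of astrocytes to 902 to 1111 TPM. Of 12 interneuron markers, 9 lay above 1 TPM (219 to 370 TPM summed). So did 6 of 7 of oligodendrocyte precursors (57.4 to 65.6 TPM) and 5 of 8 of microglia (18.1 to 41.6 TPM). Over all genes tested 65.9% lay above 1 TPM, and the counts for interneurons and microglia were near that share. Endothelial markers (2 of 8; 4.19 to 7.14 TPM), mural and meningeal markers (4 of 8; 13.2 to 18.7 TPM) and markers of Schwann and neural crest cells (2 of 6; 10.6 to 13.2 TPM) were low. All 6 erythroid markers were above 1 TPM, and their sum was 4203 TPM in replicate 2 against 2377 to 2683 TPM in the other libraries. In RNA from pooled cells, fewer cells of a type and less RNA per cell cannot be told apart, and the part that each of these cell types has in the levels below was not tested.

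The sequences just upstream of the start sites of 4 genes are shown because they set the receptor with the most RNA beside a receptor with little, and the EGF-type ligand Tgfa beside Egf, which had less RNA. Each is the 250 bases before a RefSeq start site (GRCm38.p6), read 5′ to 3′ on the strand of the gene, with every CG dinucleotide in capitals. RefSeq windows were matched for Egfr, Erbb2, Erbb4, Nrg3, Tgfa and Egf. The Egfr window is chr11:16751953-16752202 (plus strand), that of Erbb4 is chr1:69108060-69108309 (minus strand), that of Tgfa is chr6:86194972-86195221 (plus strand) and that of Egf is chr3:129755323-129755572 (minus strand).
Egfr: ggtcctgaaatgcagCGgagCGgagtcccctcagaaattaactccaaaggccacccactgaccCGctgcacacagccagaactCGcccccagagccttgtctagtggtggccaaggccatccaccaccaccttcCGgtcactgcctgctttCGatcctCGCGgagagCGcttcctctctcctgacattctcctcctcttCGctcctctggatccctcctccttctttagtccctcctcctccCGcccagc
Erbb4: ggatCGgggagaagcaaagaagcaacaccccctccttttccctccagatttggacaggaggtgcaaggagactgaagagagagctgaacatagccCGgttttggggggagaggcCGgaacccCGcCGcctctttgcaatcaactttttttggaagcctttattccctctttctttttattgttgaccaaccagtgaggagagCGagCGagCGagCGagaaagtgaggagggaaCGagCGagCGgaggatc
Tgfa: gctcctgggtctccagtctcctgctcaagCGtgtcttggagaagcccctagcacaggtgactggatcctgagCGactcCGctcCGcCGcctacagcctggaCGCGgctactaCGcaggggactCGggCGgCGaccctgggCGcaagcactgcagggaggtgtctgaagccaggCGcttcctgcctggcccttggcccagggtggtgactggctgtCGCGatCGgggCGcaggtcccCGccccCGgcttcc
Egf: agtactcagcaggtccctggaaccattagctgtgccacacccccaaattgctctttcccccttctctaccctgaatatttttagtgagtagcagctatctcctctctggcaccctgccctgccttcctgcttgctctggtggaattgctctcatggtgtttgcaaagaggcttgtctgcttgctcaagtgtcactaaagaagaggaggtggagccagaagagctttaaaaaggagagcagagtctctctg
The window of Egfr held 11 CG dinucleotides and that of Erbb4 held 12, against a median of 6 over the windows of 32851 RefSeq promoters (quartiles 2 and 16). Tgfa had 19, and this Egf window had 0, while the window of a second Egf start site had 15. Windows of Erbb2 and Nrg3, which are not shown, held 16 and 27. The GC box GGGCGG, itself holding a CG, was searched on both strands and found in Tgfa at 2 places and in Egfr at 1, and in none of the other windows. It was present in 32.7% of all promoters. The TATA box TATAAA, also searched on both strands, was in none of the 7 windows and in 12.4% of all promoters. The number of CG dinucleotides did not follow the RNA level over these genes: Nrg3 had the most of them and the lowest level.

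Egfr, which binds EGF, TGF-alpha and HB-EGF, had 9.94, 11.8, 10.2 and 12.3 TPM in replicates 1 to 4. Replicates 2 and 4 were the higher and replicates 1 and 3 the lower, within a ratio of 1.24 between the highest and the lowest library. These values rest on 1007 to 1499 counts per library. The level lay 3.47 ± 0.05 above 1 TPM on the log2 scale (SE; adjusted p = 3.43e-13 in edgeR), and it exceeded that of 63.7% of all genes tested. Among the protein-coding genes tested, 53.7% had a lower level than Egfr. The gene (ENSMUSG00000020122) spans chromosome 11 from 16752203 to 16918158 on the plus strand (GRCm38), with 5 annotated transcripts. Its share of the RNA of all 4 receptors was 66.5%, 75.9%, 78.7% and 72.6% in replicates 1 to 4.

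Erbb2, the partner receptor without a known ligand, had 1.95, 1.94, 1.60 and 2.07 TPM in replicates 1 to 4. Replicate 3 was the lowest, and all 4 libraries were above 1 TPM. The level lay 0.92 ± 0.14 above 1 TPM on the log2 scale (SE; adjusted p = 0.000188 in edgeR). With 80 to 114 counts per library, the coefficient of variation between libraries was 10.8%, close to the 10.3% that counting error alone would give. Erbb2 (ENSMUSG00000062312) lies on chromosome 11 from 98412470 to 98437716 on the plus strand, and 0.173% of its exonic bases are shared with Mien1 on the other strand. Its share of receptor RNA was 12.5% ± 0.366 (SD, n = 4). With a counting error of 10.3% in Erbb2 alone, so small a spread cannot be read as steadiness.

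Erbb3 binds neuregulins but has little kinase activity of its own and signals through its partners. It was the most variable of the 10 genes, with 1.86, 0.87, 0.26 and 1.31 TPM in replicates 1 to 4. Replicate 1 was the highest and replicate 3 the lowest, 7.16 times apart. The counts behind these values were 100, 59, 15 and 65. The exact 95% Poisson interval, which covers counting error only, was 1.51 to 2.26 TPM in replicate 1 and 0.15 to 0.43 TPM in replicate 3, with no overlap. Replicate 2 (0.66 to 1.12 TPM) and replicate 4 (1.01 to 1.67 TPM) lay between them.

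The mean of Erbb3 was 1.07 ± 0.677 TPM (SD, n = 4). Its level was not called against 1 TPM (log2 level 0.10 ± 0.35, SE; adjusted p = 0.803 in edgeR), and it stayed uncalled without replicate 1 (log2 level -0.30) and without replicate 3 (0.43). The coefficient of variation was 63.0%, against 12.9% from counting error alone. Over the 16706 genes with at least 40 counts in total, the median was 14.9%. Erbb3 (ENSMUSG00000018166) lies on chromosome 10 from 128567523 to 128589652 on the minus strand and has 1 annotated transcript, and none of its exonic bases are shared with a gene on the other strand.

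Markers of other cell types were also uneven across the libraries. Dlx5, an interneuron transcription factor, had 8.25, 5.26, 3.40 and 6.11 TPM in replicates 1 to 4, the same order of libraries as Erbb3. This order was shared by 2 of the 12 interneuron markers, Dlx2 and Dlx5, and by no marker of the other lists. In replicate 3, 8 of the 12 were lowest. So were 3 of 8 endothelial and 3 of 8 mural and meningeal markers, the most in any other list, and the other lists are shorter. The shares over all genes were not computed, and a shared order of 4 libraries carries little weight. Others ran differently, such as Prox1, at 3.18, 2.53, 3.47 and 3.88 TPM, and Sp8, at 35.7, 41.5, 37.0 and 59.9 TPM; these were chosen after their values were seen. Gad1, the enzyme that makes GABA, had 2.38, 3.45, 1.91 and 2.48 TPM, and the 12 interneuron markers summed to 293, 370, 219 and 326 TPM. In this sum, most of it from Npy and Sst, replicate 3 was the lowest, as for Erbb3, but replicate 2 was the highest. Sox10, a factor of the oligodendrocyte lineage and of neural crest, had 6.52, 5.68, 5.87 and 4.93 TPM, and Pdgfra, the receptor that marks oligodendrocyte precursors, had 15.7, 13.1, 13.8 and 15.1 TPM. The 7 oligodendrocyte precursor markers summed to 65.6, 57.4, 60.2 and 62.9 TPM, with replicate 1 the highest but replicate 2 the lowest. The 6 markers of Schwann and neural crest cells summed to 12.2, 11.4, 10.6 and 13.2 TPM, with Foxd3, a neural crest factor, at 0, 0, 2 and 0 counts. The 8 microglial markers summed to 41.6, 31.9, 39.6 and 18.1 TPM, with replicate 4 the lowest, and 1 of them, the complement gene C1qa, had a larger coefficient of variation than Erbb3 (71.6%). The part of these cells in the Erbb3 values was not tested.

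Erbb4, a neuregulin receptor with an active kinase, had 1.20, 0.91, 0.89 and 1.26 TPM in replicates 1 to 4. Replicates 1 and 4 were above 1 TPM and replicates 2 and 3 below it. The mean was 1.07 ± 0.190 TPM (SD, n = 4), and the level was not called (log2 level 0.09 ± 0.15, SE; adjusted p = 0.593 in edgeR). The gene (ENSMUSG00000062209) spans 1075874 bases of chromosome 1, from 68032186 to 69108059 on the minus strand, while its merged exons cover 12355 bases. Erbb4 took 7.07% ± 0.909 of the receptor RNA, and Erbb3 took 2.01% to 12.4%.

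Nrg1, a neuregulin with many isoforms that serves as ligand of Erbb3 and Erbb4, had 11.0, 12.6, 13.2 and 13.6 TPM in replicates 1 to 4. Replicate 1 was the lowest, and the other 3 libraries lay close together. The level was 3.65 ± 0.05 above 1 TPM on the log2 scale (SE; adjusted p = 1.26e-13 in edgeR). Nrg1 made up 85.5% ± 1.80 of the summed neuregulin RNA (SD, n = 4), and no less than 83.7% in any library. It lies on chromosome 8 from 31814551 to 32884029 on the minus strand (ENSMUSG00000062991), with 18 annotated transcripts. Of its exonic bases, 4.66% are shared with Gm26578 on the other strand, so part of its count cannot be placed with certainty.

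Nrg2 and Nrg3, neuregulins expressed mainly in neurons, stood near 1 TPM. Nrg2 had 0.93, 1.02, 1.36 and 1.20 TPM in replicates 1 to 4. Replicate 3 was the highest and replicate 1 the lowest, but with 26 to 41 counts per library the coefficient of variation of 17.1% was no larger than the 17.3% from counting error alone. Nrg3 had 0.90, 0.70, 1.21 and 1.23 TPM, with replicates 3 and 4 above 1 TPM and replicates 1 and 2 below it. Its coefficient of variation was 25%, against 12.5% from counting error alone. Neither was called by edgeR: the log2 level was 0.17 ± 0.23 for Nrg2 (SE; adjusted p = 0.518) and 0.01 ± 0.20 for Nrg3 (SE; adjusted p = 0.963). Nrg2 (ENSMUSG00000060275) is on chromosome 18 from 36017652 to 36197380, and Nrg3 (ENSMUSG00000041014) on chromosome 14 from 38368952 to 39473088, both on the minus strand.

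Hbegf, which encodes HB-EGF, a heparin-binding ligand of Egfr and Erbb4, had the highest level of the 10 genes. It had 26.8, 20.7, 18.6 and 19.4 TPM in replicates 1 to 4, resting on 774 to 1160 counts. Replicate 1 was above the other 3 libraries, which lay close together. The level was 4.42 ± 0.06 above 1 TPM on the log2 scale (SE; adjusted p = 1.82e-13 in edgeR) and exceeded that of 74.3% of all genes tested. Among the protein-coding genes tested, 66.7% had a lower level than Hbegf. The coefficient of variation of 17.4% was larger than the 3.19% from counting error alone. Hbegf (ENSMUSG00000024486) lies on chromosome 18 from 36504927 to 36515805 on the minus strand, with 3 annotated transcripts.

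Tgfa, which encodes the Egfr ligand TGF-alpha, had 7.82, 8.43, 7.35 and 7.39 TPM in replicates 1 to 4. It was the steadiest of the 10 genes, with a coefficient of variation of 6.52% (4.56% from counting error alone). The level was 2.95 ± 0.07 above 1 TPM on the log2 scale (SE; adjusted p = 9.26e-12 in edgeR). This level exceeded that of 58.1% of all genes tested and of 47.4% of the protein-coding genes tested. Tgfa (ENSMUSG00000029999) lies on chromosome 6 from 86195223 to 86275719 on the plus strand. Of its exonic bases, 1.82% are shared with a gene on the other strand.

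Egf, the founding ligand of the family, had 1.48, 1.35, 1.27 and 1.80 TPM in replicates 1 to 4. All 4 libraries were above 1 TPM, and replicate 4 was the highest. The level was 0.56 ± 0.13 above 1 TPM on the log2 scale (SE; adjusted p = 0.0029 in edgeR). Egf (ENSMUSG00000028017) lies on chromosome 3 from 129677565 to 129755316 on the minus strand, and 9.82% of its exonic bases are shared with 6330410L21Rik and Gm42697 on the other strand, the largest such share among the 10 genes. No step that marks strand is described for these libraries, so its count is uncertain, and the share of its reads from those bases was not measured.

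Summed over genes, the 3 EGF-type ligands reached 36.1, 30.4, 27.3 and 28.6 TPM in replicates 1 to 4. The 3 neuregulins reached 12.8, 14.3, 15.7 and 16.0 TPM, and the 4 receptors 14.9, 15.5, 12.9 and 17.0 TPM. EGF-type ligands thus took 73.9%, 68.0%, 63.4% and 64.2% of the ligand RNA, more than the neuregulins in every library. Within the EGF-type ligands, Hbegf took 69.6% ± 3.11, Tgfa 25.5% ± 2.70 and Egf 4.87% ± 0.972 (SD, n = 4).

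By mean TPM the order ran Hbegf, Nrg1, Egfr, Tgfa, Erbb2, Egf, Nrg2, Erbb3, Erbb4 and Nrg3. Each of the 9 pairs of neighbours was compared within libraries as the log2 ratio of TPM + 1, by flipping signs over libraries in an exact permutation test (two-sided). With 4 libraries the smallest p is 0.13, so no pair could pass 0.05. The largest step lay between Tgfa and Erbb2, with a log2 ratio of 1.60 ± 0.11 (SD) and Tgfa the higher in 4 of 4 libraries (exact p = 0.13, adjusted 0.225 over the 9 pairs). Hbegf over Nrg1 (0.71 ± 0.35), Nrg1 over Egfr (0.17 ± 0.11), Egfr over Tgfa (0.46 ± 0.15) and Erbb2 over Egf (0.23 ± 0.08) also had the first gene higher in 4 of 4 libraries, with the same p. Egf was higher than Nrg2 in 3 of 4 libraries (0.22 ± 0.19; exact p = 0.25, adjusted 0.375). The last 3 steps were smaller than their spread: 0.09 ± 0.61 for Nrg2 over Erbb3, -0.05 ± 0.40 for Erbb3 over Erbb4 and 0.04 ± 0.20 for Erbb4 over Nrg3. The order of Nrg2, Erbb3, Erbb4 and Nrg3 is thus not resolved in these libraries. These steps are by merged exon length. By gene span the log2 ratio of Tgfa over Erbb2 fell to 0.43 and that of Hbegf over Nrg1 rose to 4.58.

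**Figure D2:**
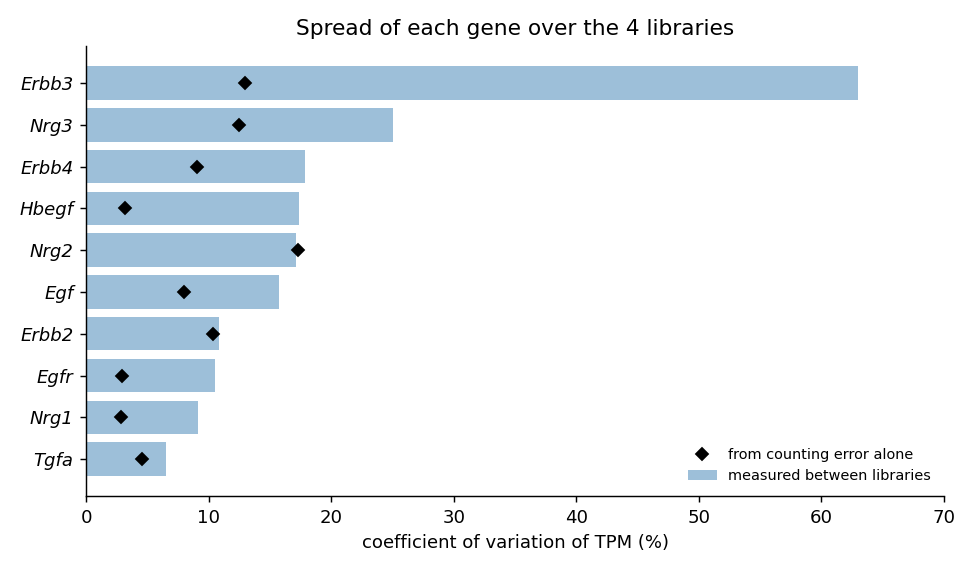
Coefficient of variation of TPM over the 4 libraries (bars, percent) for each of the 10 genes, with the value that counting error alone would give (diamonds). Erbb3 reaches 63.0% against 12.9% from counting error, while Nrg2 and Erbb2 lie at their counting error.

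Spread beyond counting error was also present in genes with many counts. Hbegf varied 5.43 times as much as counting error alone, Erbb3 4.87 times, Egfr 3.64 times and Nrg1 3.21 times. Erbb2 (1.05 times) and Nrg2 (0.991 times) did not vary beyond it. Of the 10 genes, only Nrg3 and Erbb3 had a coefficient of variation above the 19.8% that was the median over all genes tested. That median includes genes with few counts. The median was 14.9% over genes with at least 40 counts in total, as all 10 had. Erbb4 (17.8%), Hbegf (17.4%), Nrg2 (17.1%) and Egf (15.7%) also lay above this lower median. Egfr, Nrg1, Tgfa and Erbb2 lay below it.

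The protein-coding genes whose levels were most like the leading members over the 4 libraries were found by the root mean square difference of log2(TPM + 1). For Egfr this was Pcgf3, at 9.44, 11.9, 10.3 and 11.95 TPM (difference 0.0401). For Hbegf it was Ube2e1, at 27.0, 20.5, 18.9 and 20.3 TPM (difference 0.0323). For Nrg1 it was Tcim, at 10.7, 12.7, 13.7 and 13.8 TPM (difference 0.0342). Each was the closest of 15401 protein-coding genes tested, and closeness over 4 libraries of 1 group is a description of level and pattern.

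The choice of gene length decided the place of several of these genes. The TPM deposited by the authors matched counts divided by the whole gene span, introns included: after a constant for each library, 94.5% of 40470 values of at least 1 TPM differed by no more than 0.01 (log2) from TPM computed by gene span, and so did the means of all 10 genes. On the deposited scale Nrg1 had 0.372, 0.428, 0.449 and 0.460 TPM, against 11.0 to 13.6 TPM by merged exon length. Its gene spans 1069479 bases and its merged exons 10351. Erbb4 averaged 0.043 TPM, Nrg2 0.0693 TPM and Nrg3 0.022 TPM on the deposited scale. Hbegf, a short gene, averaged 33.4 TPM there, and Egfr 2.65 TPM against 1.37 TPM for Erbb2, a smaller lead than by merged exons.

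By gene span, 4 of the 10 genes (Hbegf, Egfr, Tgfa and Erbb2) were called above 1 TPM by edgeR and 5 (Nrg1, Egf, Nrg2, Erbb4 and Nrg3) below it, while 65.4% of all genes were above and 19.8% below. Nrg1 was in place 7 of the 10 by gene span, against place 2 by merged exons, since its level by merged exons was 29.2 times that by gene span. The same ratio was 45.8 for Nrg3, 24.6 for Erbb4 and 16.2 for Nrg2, but 1.04 for Erbb3 and 0.636 for Hbegf. By the longest annotated transcript the calls of all 10 genes were as by merged exons, with 64.2% of all genes above 1 TPM and 14.5% below. Egf then stood at 2.64 TPM and above Erbb2 at 1.49 TPM. Nrg1 and Egfr, at 12.6 and 11.0 TPM by merged exons, were at 18.2 and 9.28 TPM by longest transcript and at 0.431 and 2.67 TPM by gene span.

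**Figure D3:**
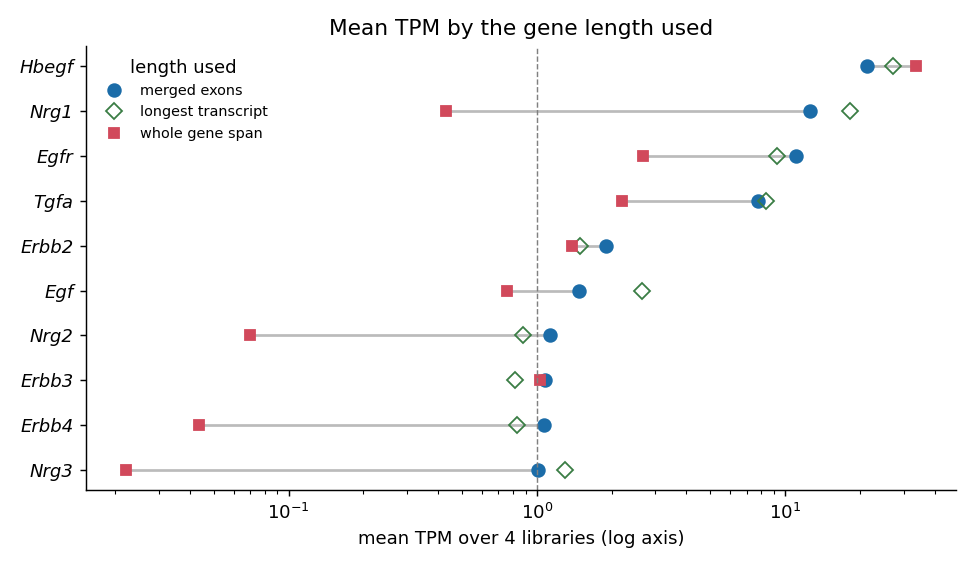
Mean TPM over 4 libraries (log axis) of each of the 10 genes by merged exon length (circles), longest transcript (open diamonds) and whole gene span (squares), with 1 TPM dashed. Nrg1, Nrg2, Erbb4 and Nrg3 lie at 0.43 TPM or lower by gene span and at 1.01 TPM or higher by merged exons.

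By merged exon length the other ErbB ligands averaged 1.62 TPM or lower. Nrg4, a neuregulin that binds Erbb4, had 0.865, 0.57, 0.48 and 0.559 TPM and was called below 1 TPM (log2 level -0.69 ± 0.26, SE; adjusted p = 0.033 in edgeR), with 8.97% of its exonic bases shared with a gene on the other strand. By longest transcript Nrg4 averaged 1.36 TPM and was not called (adjusted p = 0.113 in edgeR), so its call depends on the length used. Btc, which encodes betacellulin, a ligand of Egfr and Erbb4, had 0.915, 0.708, 1.38 and 0.0806 TPM. Replicate 4 held 3 counts of it against 36 to 60 in the other libraries, and its level was not called (adjusted p = 0.473 in edgeR). Replicate 4 was also the lowest in the marker sums of microglia, endothelium and intermediate progenitors. The part of these cells in the Btc values was not tested. Areg, which encodes the Egfr ligand amphiregulin, had 0.368, 0.585, 3.43 and 2.10 TPM, from 4, 8, 40 and 21 counts. Replicates 3 and 4 were the higher, and the level was not called (adjusted p = 0.202 in edgeR). Ereg, which encodes epiregulin, had 0, 5, 4 and 1 counts and was called below 1 TPM (adjusted p = 0.00446 in edgeR). Epgn, which encodes epigen, had 0, 5, 0 and 0 counts and was not tested. In the libraries without a count, the exact 95% Poisson interval reaches 0.0999 TPM of Ereg in replicate 1. For Epgn it reaches 0.212 to 0.248 TPM in replicates 1, 3 and 4.

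Beyond these ligands, most genes of the pathway were present. Of 111 listed genes other than the 10 described above, 110 were matched and 108 had at least 10 counts. Of these, 100 lay above 1 TPM and 5 below it by edgeR's quasi-likelihood test, against 65.9% and 12.1% of all genes. The median of the 110 was 13.4 TPM, against 4.79 TPM over all genes tested and 9.0 TPM over the protein-coding genes tested. The lists hold many widely expressed genes, so no statement particular to them follows. The 5 genes below 1 TPM were Nrg4, Ereg, Adam12, Stat5a and Cblc. The count of 5 falls to between 1 and 3 when any 1 library is left out. The genes not called were Btc, Areg and the feedback inhibitor Lrig3 (0.713 ± 0.178 TPM; adjusted p = 0.0668 in edgeR). Muc4, a membrane mucin that binds Erbb2, had no count in any library, and its exact 95% Poisson interval reaches at most 0.0381 TPM.

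Proteases that release ErbB ligands were present at different levels. Adam10, a sheddase of EGF, had 53.0, 49.0, 52.2 and 59.3 TPM in replicates 1 to 4. Adam17, the main sheddase of TGF-alpha and HB-EGF, had 17.2, 17.8, 19.5 and 19.8 TPM, with 4.35% of its exonic bases shared with a gene on the other strand. Bace1, a protease that cuts type III Nrg1, had 72.8, 76.3, 74.3 and 76.9 TPM, but 32.5% of its exonic bases are shared with a gene on the other strand, so its level is uncertain. These 3 proteases were above Egfr in every library. Adam9 averaged 10.7 TPM, close to Egfr, and was above it in replicate 3 (11.0 against 10.2 TPM) and below it in the other libraries. The averages of Adam19 (8.0 TPM) and Adam12 (0.444 TPM) were below that of Egfr. Ncstn, a subunit of the gamma-secretase that cleaves Erbb4 in the membrane, was at 167 ± 5.59 TPM and led this list. In the list 11 of 12 genes lay above 1 TPM, against 65.9% of all genes tested.

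Genes acting just below the receptors covered a wide range. The counts above 1 TPM that follow stand against 65.9% of all genes tested. Among adaptors and first effectors, 15 of 16 lay above 1 TPM, with Grb2, the adaptor that links receptors to Ras, at 101 ± 7.54 TPM and Plcg1, a phospholipase, at 30.3 ± 0.683 TPM. All 12 genes of the Ras, Raf, MEK and ERK list lay above 1 TPM, with a median of 29.7 TPM, led by Nras at 510 ± 59.5 TPM and Mapk3, which encodes ERK1, at 69.9 ± 11.3 TPM. All 10 genes of the PI3K and AKT arm did too, with a median of 31.9 TPM. Akt1, the kinase downstream of PI3K, had 52.8 ± 2.56 TPM, and Pik3r3, a regulatory subunit of PI3K, had 110 ± 7.02 TPM, although 24.3% of its exonic bases are shared with another gene on the same strand. Hsp90ab1 and Hsp90aa1, chaperones that stabilise Erbb2, were at 5315 ± 280 and 821 ± 43.7 TPM.

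Nearly all inhibitors of the pathway were present. Of 17 matched feedback inhibitors, 16 lay above 1 TPM and 1 was not called, while 65.9% of all genes tested lay above. Spry2, an inhibitor of receptor signalling to ERK, had 216, 224, 238 and 264 TPM in replicates 1 to 4. Dusp6, the phosphatase of ERK, had 98.1, 110, 85.4 and 98.7 TPM. Errfi1, which binds and blocks the ErbB kinases, had 12.2, 7.56, 10.7 and 11.4 TPM, with replicate 2 the lowest. Lrig1, which lowers ErbB receptor protein, had 4.22, 3.88, 6.06 and 4.09 TPM, with replicate 3 the highest. Of 14 ubiquitin ligases and trafficking genes, 13 lay above 1 TPM, among them Nedd4 at 396 ± 18.0 TPM and Rnf41, the ligase known for Erbb3, at 159 ± 10.2 TPM. All 15 ERK-responsive genes lay above 1 TPM, led by Fos at 546 ± 13.9 TPM and Ier3 at 237 ± 37.2 TPM. Etv5 was at 13.6, 12.9, 13.2 and 13.0 TPM, while Etv4, a factor of the same family, was at 4.0, 6.9, 2.62 and 4.38 TPM and varied more between libraries.

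**Figure D4:**
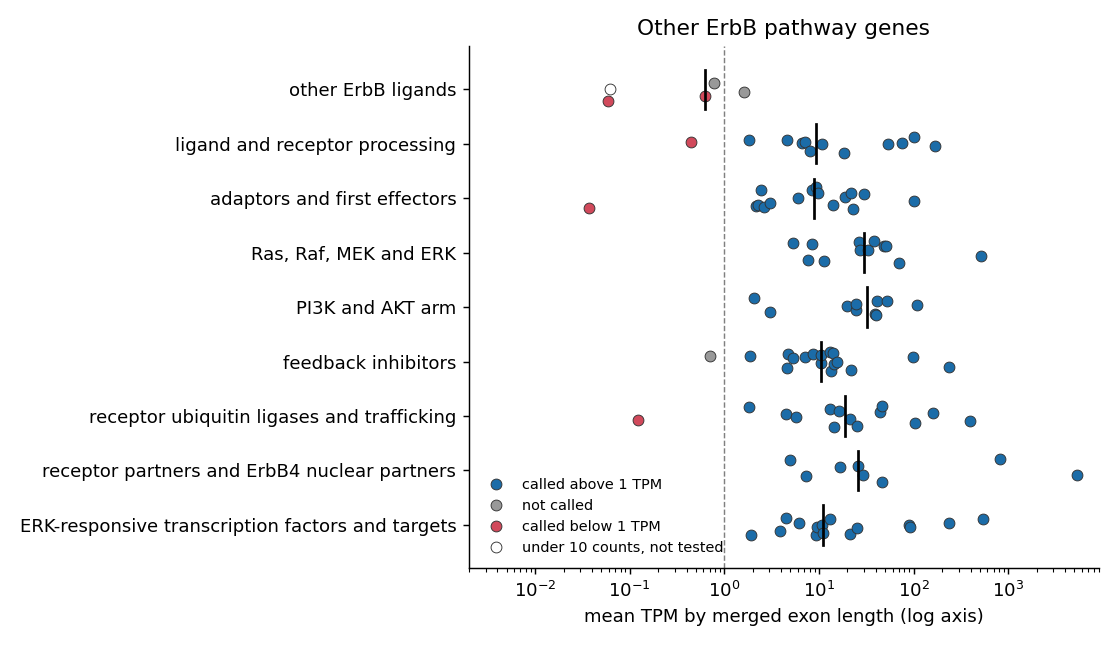
Mean TPM by merged exon length (log axis) of the other ErbB pathway genes, 1 row per list, coloured by the edgeR call against 1 TPM, with vertical bars at the median of each list and 1 TPM dashed; Muc4, with no count, cannot be drawn on a log axis. The other ErbB ligands sit at 1.62 TPM or lower, and 100 of the 108 tested genes lie above 1 TPM.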

How the data were processed

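RNA was measured in 4 libraries of 1 group. Full-length cDNA was primed with poly-dT, completed by template switching, amplified and sheared before Illumina library preparation, per the labels' protocols, and no step that marks strand is described. The submitters' processing notes name bcl2fastq 2.19.1, STAR 2.5.2b and the genome build GRCm38. No source used here names the counter, the strand setting or the annotation release. The authors deposited whole-number read counts per Ensembl gene, not normalised, and a TPM table for 15648 of the 45706 genes.

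TPM was recomputed from the deposited counts with merged exon lengths of GENCODE release M21, in which 45143 genes matched. The other 563 held 0.120% to 0.125% of the counts and were left out. Each gene with at least 10 counts was tested against 1 TPM in edgeR 4.0.16 (R 4.3.3) by a one-sample quasi-likelihood F test, two-sided, with Benjamini-Hochberg adjustment over all genes and a threshold of 0.05. The test was checked on simulated counts. Sign-flip tests used scipy 1.17.1. Alternatives were TMM factors, DESeq2 1.42.0, no filter on counts, other lengths, other levels, another pseudocount and leaving out each library.

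Named were all 10 members, the other ErbB ligands, a fixed set of proteases, inhibitors, targets and marker genes, the 2 highest genes of each pathway and marker list where the text describes the list by its genes, and the genes most like the leading members. A few such genes are not reported here by name; list counts and sums include them. The members and lists were chosen with earlier results of these data known. Intervals cover counting error only, since amplified reads without molecular identifiers are not independent molecules.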

Additional observations from a re-analysis of the deposited data

Results flagged for a closer look

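Each gene named and each marker sum was examined for a library standing far from the other 3, by the gap of the highest or lowest library to its nearest neighbour over the whole range against Dixon's 95% critical value. Over 75 such groups of 4 libraries, chance flags about 1 in 20. None of the 10 ErbB receptor and ligand genes had such a library, Erbb3 included. Among other ErbB pathway genes, Lrig1 had 6.06 TPM in replicate 3 against 3.88 to 4.22 TPM in the others. Nras had 598 TPM in replicate 4 against 475 to 490 TPM, and Plcg1 had 29.3 TPM in replicate 4 against 30.5 to 30.7 TPM. Epgn had 0.246 TPM in replicate 2, from 5 counts, and no count in the others.

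Among markers, Btg2 had 392 TPM in replicate 1 against 433 to 439 TPM. The erythroid markers summed to 4203 TPM in replicate 2 against 2377 to 2683 TPM, with Hbb-bs at 1712 TPM against 932 to 1060 TPM and Hba-a1 at 1027 TPM against 579 to 637 TPM. Their part in the levels of the ErbB genes was not tested.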

How the results depend on the processing

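The calls of all 10 ErbB genes were the same with TMM factors, with DESeq2, with no filter on counts, by longest transcript and without any single library. By gene span, 5 members instead of 0 were called below 1 TPM, and the log2 level turned negative for Nrg3 (-5.50), Erbb4 (-4.53), Nrg2 (-3.85), Nrg1 (-1.22) and Egf (-0.40). The ratio of Nrg1 over Egfr then turned to -1.36, and by longest transcript that of Erbb2 over Egf turned to -0.55 (log2). Against 0.5 TPM all 10 members were called above, and against 2 TPM 4 were called below. Of 90 alternative values of the members' log2 levels 85 kept their direction or stayed uncalled, and of 63 alternative ratios 47 moved by less than 1 SD. Of the other pathway genes, 12 were below 1 TPM by gene span, 3 were below 0.5 TPM, and 1 to 3 were below 1 TPM without a single library, against 5 with all libraries. Over all genes, 2532 were below 1 TPM. This count was 6564 with no filter, 4146 by gene span, 733 against 0.5 TPM, 5328 against 2 TPM and 1525 to 1707 without a single library. A different length or level changes the quantity tested and fewer libraries widen the error; no other cause was tested. No paired analysis was possible because the 4 libraries form 1 group. Depth limits Nrg2 (134 counts in all), whose spread lay at its counting error, while Erbb3 and Nrg3 varied beyond theirs.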
